A study of Mus musculus with 6 samples.

Results

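The DNA repair genes described here are 47 human genes chosen by symbol for their role in repair, of 23284 gene symbols in the expression table. All 47 were found. They were followed in 6 subcutaneous xenografts of STS26T, a human malignant peripheral nerve sheath tumour (MPNST) line, in athymic nude mice, which lack a thymus and its T cells. In 3 tumours the mice had received the antibodies TRC105 and M1043, which bind human and mouse endoglin (ENG), a co-receptor for TGF-beta family ligands. In the other 3 the mice had received an IgG control. Each injection, given intraperitoneally 2 times weekly over 3 weeks, held 10 mg/kg in either arm. All 6 tumours derive from 1 cell line, the hosts keep their innate immune cells, and the age and sex of the mice are not given in the labels.

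DNA repair works through several pathways. Homologous recombination copies a broken chromosome from its sister and is active mainly after replication, the Fanconi pathway unhooks crosslinks between DNA strands, and end joining reseals broken ends at any stage of the cycle. Mismatch repair corrects copying errors, base excision removes single damaged bases, and nucleotide excision cuts out bulky lesions such as those left by ultraviolet light. Some of these genes, among them BRCA1, EXO1, FANCD2 and CHEK1, are transcribed mostly in S phase, so their RNA in bulk tissue follows the share of dividing cells, while others are made throughout the cycle.

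The values are FPKM (fragments per kilobase of transcript and per unit of sequencing depth), which can be set against each other between genes because they are per length. Each tumour's column summed to between 410786 and 475146 FPKM, and 12358 to 12624 genes per tumour reached 1 FPKM. Correlations of log2(FPKM + 1) across genes were 0.959 to 0.983 within groups and 0.932 to 0.984 between groups. The first principal component (44.6% of the variance) ran between anti-ENG 1 and IgG control 1, so results are also given without them. The description codes of anti-ENG 1 and 2 share a number, as do those of IgG control 2 and 3. Whether such tumours came from 1 animal is not stated, and the p-values reflect the spread among these samples, which may be partly technical. Of 9 Schwann lineage markers, 6 stayed under 1 FPKM in all 6 tumours, SOX10 and S100B among them, and 4 of 6 melanocyte markers did so too. The mesenchymal marker VIM stood at 1585 to 2182 FPKM in anti-ENG tumours and 1386 to 1914 FPKM in IgG tumours. Of the 4 mesenchymal markers listed, VIM alone had a log2 fold change above 0 (0.26, anti-ENG over IgG). CD44, TWIST1 and NES were below 0, the median was -0.15, and only in NES did the arms lie apart. In limma 0 of the 4 passed an adjusted p of 0.05. ENG itself, the antibodies' target, averaged 23.9 FPKM in anti-ENG tumours and 29.0 FPKM in IgG tumours, a difference within the spread between tumours (limma adjusted p = 0.751).

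No repair gene passed the test between the arms. Of the 47 genes 46 averaged 1 FPKM or more across the tumours and entered a limma fit across 12586 genes. At a Benjamini-Hochberg adjusted p under 0.05 the fit called 0 repair genes, against 0% of all genes tested. The smallest adjusted p of a repair gene was 0.529, which was also the smallest in the whole table. At an unadjusted p under 0.05 there were 4 repair genes, 8.7% of the 46, against 9.17% of all genes tested. These were RAD51C, XRCC4, UNG and APEX1, each higher in the anti-ENG tumours, where the share of all genes that passed in that direction was 5.56%. In the lower direction there were 0 repair genes, beside 3.61% of all genes. The count of 4 changed with the setting, and so did the share of all genes, given in brackets. It was 0 with upper quartile scaling (7.95%), with a replicate block (6.69%), without anti-ENG 3 (11.6%) and without IgG control 1 (5.81%). It was 1 with the sum of FPKM made equal (9.98%) and without anti-ENG 1 (5.47%), and 7 without anti-ENG 2 (12.4%).

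The 3 tumours of one arm lay apart from the 3 of the other in 9 repair genes, 19.6% of the 46, against 17.3% of all genes tested. In 7 of the 9 the anti-ENG tumours were higher (15.2% of the 46, against 10.6% of all genes). In 2 they were lower (4.35%, against 6.75%). With the sum of FPKM made equal across tumours the counts were 0 higher and 7 lower, beside 3.46% and 14.2% of all genes, so the 7 genes that were higher as deposited overlapped under that scaling. With upper quartile scaling they were 5 higher and 3 lower, beside 8.16% and 7.52% of all genes. As deposited both counts are near the background, so they are no result about repair genes as such. At this group size 0.1 is the smallest two-sided p that exact permutation of the tumours allows, even where the groups lie apart.

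Taken as a group, the repair genes had a median log2 fold change of 0.075 (anti-ENG over IgG, on the log2(FPKM + 1) scale), a 1.05-fold higher level, beside 0.0065 for all genes tested. The log2 fold change was above 0 in 31 (67.4%, beside 51.2% of all genes tested) and below 0 in 15 of the 46. This split was 20 above and 26 below when each tumour was rescaled to the same sum of FPKM, beside 33.1% of all genes above 0. That rescaling moved the median of all genes to -0.10 and that of the repair genes to -0.027. The distance between these medians was 0.073 under that scaling and 0.068 as deposited. As deposited, single log2 fold changes ran from -0.24 for XRCC1 to 0.43 for XRCC4.

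**Figure D1:**
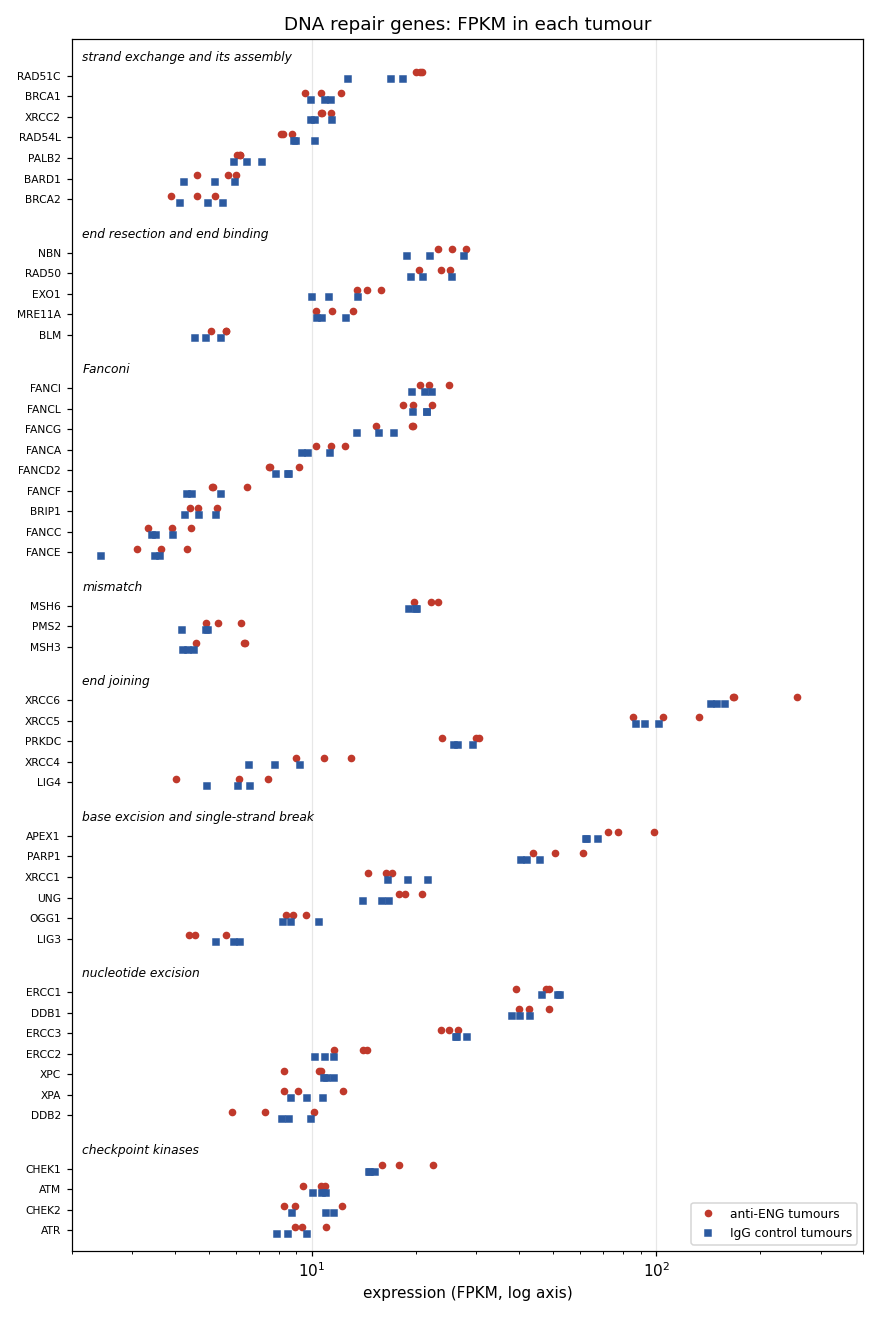
FPKM (log axis) of the 46 repair genes tested, grouped by pathway, with 1 point per tumour: red circles are the 3 anti-ENG tumours and blue squares the 3 IgG control tumours. Levels span from FANCE near 3 FPKM to XRCC6 between 145 and 256 FPKM, and in most genes the arms overlap.

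Levels differed far more between genes than between arms. XRCC6 had the highest level of the 46 with a mean of 174 FPKM over all 6 tumours, at the 97.3rd percentile of genes tested. XRCC5 (101 FPKM), APEX1 (73.6 FPKM), ERCC1 (47.8 FPKM), PARP1 (47.4 FPKM) and DDB1 (42.1 FPKM) came next, and ERCC1 and PARP1 did not differ beyond their spread. The lowest were FANCE (3.44 FPKM), FANCC (3.76 FPKM), BRCA2 (4.73 FPKM) and BRIP1 (4.77 FPKM), and the last pair lay within each other's spread too. MGMT, the methyltransferase that removes alkyl groups from guanine directly, is listed at 0 in all 6 tumours, so no fold change is given. The highest tumour stood a median 1.41-fold over the lowest among the repair genes, beside 1.47-fold among the 10049 genes with a mean in the same range (3.44 to 174 FPKM).

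Among the genes of strand exchange, where a broken end invades the sister chromatid, RAD51C stood apart. RAD51C, which acts in homologous recombination and crosslink repair, had 20.9, 20.1 and 20.5 FPKM in anti-ENG 1, 2 and 3, against 12.7, 18.4 and 17.0 FPKM in IgG control 1, 2 and 3. Every anti-ENG tumour was above every IgG tumour, and the anti-ENG values were close together. The log2 fold change was 0.35 (SE 0.15, limma adjusted p = 0.529), and without IgG control 1, the lowest tumour, it was 0.20. RAD54L, a motor protein that remodels the joined strands, went the other way with 8.74, 8.10 and 8.23 FPKM in anti-ENG tumours, against 8.85, 9.01 and 10.2 FPKM in IgG tumours. Here the groups lay apart by a narrow margin (log2 fold change -0.14, SE 0.11, limma adjusted p = 0.641).

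BRCA1, the ubiquitin ligase subunit that promotes resection, was the nearest of all 46 to no difference. It had 10.6, 9.50 and 12.2 FPKM in anti-ENG tumours, against 11.3, 9.92 and 10.9 FPKM in IgG tumours, a log2 fold change of 0.00037 (SE 0.12). Its partner BARD1 averaged 5.45 ± 0.721 FPKM in anti-ENG tumours and 5.15 ± 0.871 FPKM in IgG tumours (SD, n = 3 each). BRCA2, which acts at the resected break, averaged 4.57 ± 0.656 FPKM in anti-ENG tumours and 4.89 ± 0.696 FPKM in IgG tumours (SD, n = 3 each). In PALB2, the bridge between BRCA1 and BRCA2, the means were 6.13 ± 0.0728 FPKM in anti-ENG tumours and 6.51 ± 0.605 FPKM in IgG tumours (SD, n = 3 each). XRCC2, also a gene of strand exchange, averaged 10.9 and 10.5 FPKM in the anti-ENG and IgG tumours and varied least of all 46, by 1.15-fold from its lowest to its highest tumour. In all 5 of these genes the arms overlapped. The 7 genes of the class had a median log2 fold change of 0.00037, with 4 above and 3 below 0 as deposited. It was -0.11 with 1 above and 6 below when the sum of FPKM was made equal, and -0.015 with 3 above and 4 below under upper quartile scaling.

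The genes that bind and trim broken ends had log2 fold changes above 0 in 5 of 5, with a median of 0.11, and the arms overlapped in all 5. With the sum of FPKM made equal, RAD50 and MRE11A were at -0.046 and -0.062. EXO1, an exonuclease of resection and mismatch repair, had 15.8, 13.5 and 14.4 FPKM in anti-ENG tumours, against 9.99, 11.2 and 13.6 FPKM in IgG tumours. One IgG tumour thus reached into the anti-ENG range, and the log2 fold change was 0.31 (SE 0.14, limma adjusted p = 0.529). BLM, the helicase missing in Bloom syndrome, averaged 5.44 ± 0.311 FPKM in anti-ENG tumours and 4.97 ± 0.437 FPKM in IgG tumours (SD, n = 3 each).

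RAD50, MRE11A and NBN form the MRN complex, the first sensor of broken ends. RAD50 had 25.1, 23.6 and 20.4 FPKM in anti-ENG tumours, against 19.4, 20.99 and 25.5 FPKM in IgG tumours, with each arm covering nearly the same range. NBN had 28.0, 25.5 and 23.3 FPKM in anti-ENG tumours, against 27.7, 22.0 and 18.9 FPKM in IgG tumours. MRE11A, the nuclease, averaged 11.6 ± 1.46 FPKM in anti-ENG tumours and 11.2 ± 1.17 FPKM in IgG tumours (SD, n = 3 each). The complex was thus transcribed with the nuclease at about the same fraction of RAD50 in both arms, 0.507 ± 0.0645 in anti-ENG tumours and 0.511 ± 0.0208 in IgG tumours (SD, n = 3 each).

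Of the 9 Fanconi genes 7 had log2 fold changes above 0 and 2 below, with a median of 0.091, and the arms overlapped in all 9. With the sum of FPKM made equal, FANCC, FANCI and BRIP1 were below 0 too and the class median was -0.019. FANCA, FANCC, FANCE, FANCF, FANCG and FANCL belong to the core complex that attaches ubiquitin to FANCD2 and FANCI, with FANCL as its ligase. FANCG had the highest value of the class as deposited, a log2 fold change of 0.22 (SE 0.14), with 19.5, 19.6 and 15.4 FPKM in anti-ENG tumours, against 13.5, 15.7 and 17.3 FPKM in IgG tumours. That value was 0.13 without IgG control 1, where FANCF at 0.28 and FANCE at 0.25 were above FANCG, and 0.33 without anti-ENG 3. FANCF, a scaffold of the core, averaged 5.59 ± 0.762 FPKM in anti-ENG tumours and 4.74 ± 0.602 FPKM in IgG tumours (SD, n = 3 each). FANCA averaged 11.3 and 10.1 FPKM, FANCE 3.69 and 3.18 FPKM, and FANCC 3.90 and 3.63 FPKM in the anti-ENG and IgG tumours. FANCL was at 20.1 and 20.9 FPKM in the same order of arms. These differences were each within the spread between tumours.

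FANCI and FANCD2, the pair that the core complex marks, had unequal levels. FANCI had 21.8, 25.0 and 20.6 FPKM in anti-ENG tumours, against 22.2, 21.3 and 19.5 FPKM in IgG tumours. FANCD2 had 9.17, 7.54 and 7.50 FPKM in anti-ENG tumours, against 7.85, 8.51 and 8.59 FPKM in IgG tumours. FANCI was above FANCD2 in every tumour. BRIP1, the helicase that binds BRCA1, averaged 4.80 ± 0.449 FPKM in anti-ENG tumours and 4.74 ± 0.493 FPKM in IgG tumours (SD, n = 3 each).

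All 3 genes of the mismatch class had log2 fold changes above 0 as deposited and under each rescaling tried. Their median as deposited was 0.19. MSH3, the subunit that recognises loops of several unpaired bases, had 6.40, 4.59 and 6.35 FPKM in anti-ENG tumours, against 4.23, 4.35 and 4.53 FPKM in IgG tumours. The groups lay apart, though anti-ENG 2 was barely above the IgG range, and the log2 fold change was 0.33 (SE 0.15, limma adjusted p = 0.529). MSH6, its counterpart for single mispaired bases, averaged 21.7 ± 1.73 FPKM in anti-ENG tumours and 19.8 ± 0.585 FPKM in IgG tumours (SD, n = 3 each). PMS2, an endonuclease subunit of this pathway, averaged 5.50 ± 0.654 FPKM in anti-ENG tumours and 4.69 ± 0.441 FPKM in IgG tumours (SD, n = 3 each). In both MSH6 and PMS2 the arms overlapped. MLH3 and PMS1, mismatch repair genes from the wider list of repair genes, went the other way. MLH3 averaged 4.35 ± 0.372 FPKM in anti-ENG tumours and 5.22 ± 0.432 FPKM in IgG tumours (SD, n = 3 each). The arms of MLH3 lay apart (log2 fold change -0.22, SE 0.13, limma adjusted p = 0.569). PMS1 had a log2 fold change of -0.12, and its arms overlapped.

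End joining held the most abundant genes and the largest log2 fold changes, with 4 of 5 above 0 and a median of 0.18. XRCC6, which encodes the Ku70 subunit that caps broken ends, had 256, 167 and 168 FPKM in anti-ENG tumours, against 151, 145 and 158 FPKM in IgG tumours. The groups lay apart, but anti-ENG 1 was far above the other two anti-ENG tumours. The log2 fold change of XRCC6 was 0.35 (SE 0.18, limma adjusted p = 0.542) and 0.15 without anti-ENG 1. XRCC5, which encodes its partner Ku80, had 133, 105 and 85.6 FPKM in anti-ENG tumours, against 87.0, 102 and 92.4 FPKM in IgG tumours. Here the arms overlapped, and the log2 fold change of 0.18 was 0.016 without anti-ENG 1 and -0.035 without both anti-ENG 1 and IgG control 1.

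XRCC4, the scaffold of the ligase, had the highest log2 fold change among the 46 as deposited, 0.43 (SE 0.17, limma adjusted p = 0.529). It had 13.0, 8.95 and 10.8 FPKM in anti-ENG tumours, against 6.57, 9.22 and 7.81 FPKM in IgG tumours. IgG control 2 lay above anti-ENG 2, so the groups overlapped, and without both anti-ENG 1 and IgG control 1 the XRCC4 value was 0.19. LIG4, the ligase that XRCC4 holds, had 4.02, 7.43 and 6.13 FPKM in anti-ENG tumours, against 4.96, 6.62 and 6.10 FPKM in IgG tumours. Anti-ENG 1 held the highest XRCC4 and the lowest LIG4 value of all 6 tumours. PRKDC, the catalytic kinase recruited by Ku, averaged 28.1 ± 3.72 FPKM in anti-ENG tumours and 27.2 ± 1.89 FPKM in IgG tumours (SD, n = 3 each).

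**Figure D2:**
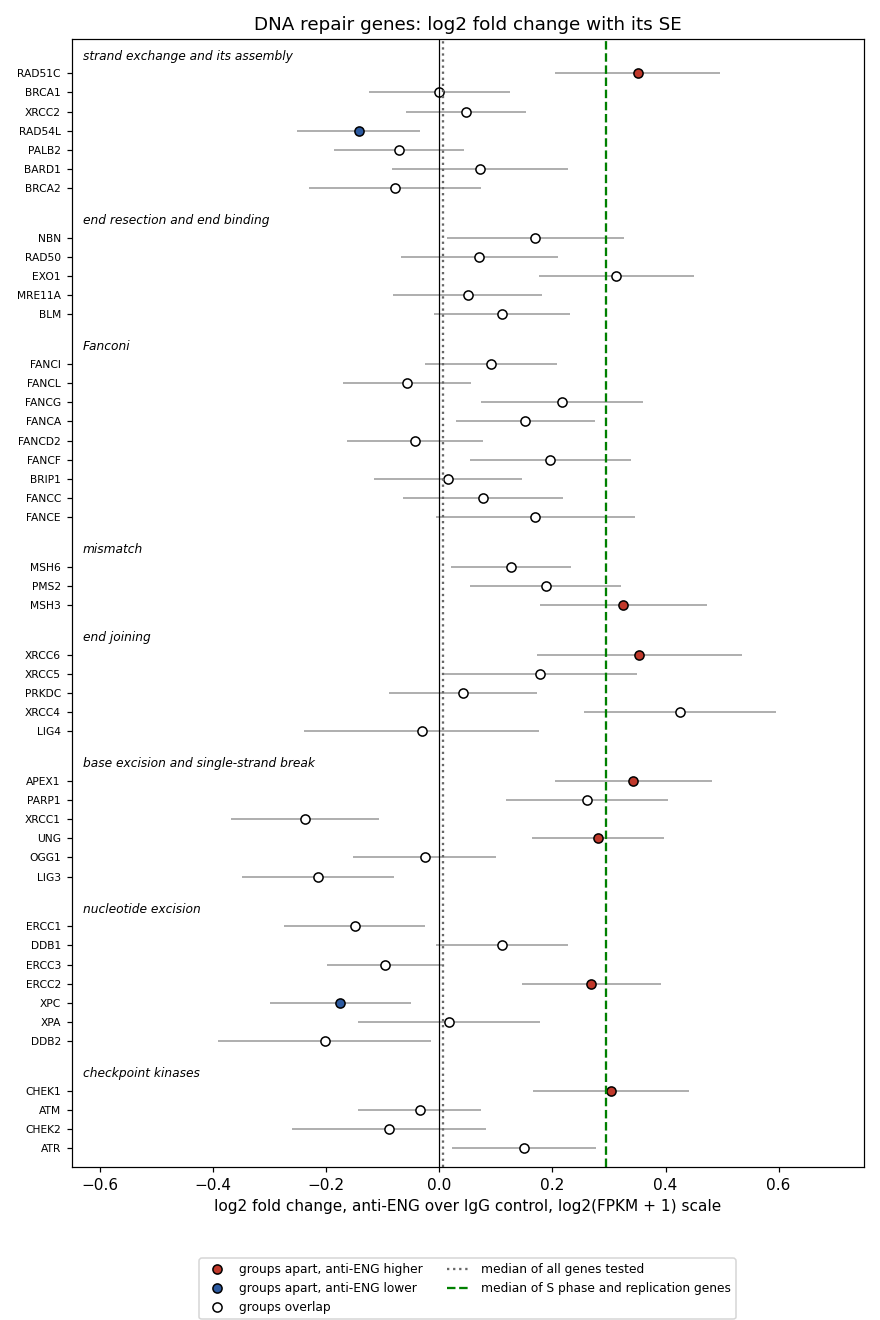
Log2 fold change of each repair gene, anti-ENG over IgG control, on the log2(FPKM + 1) scale with its SE (horizontal bars), grouped by pathway. Filled points are the 9 genes whose arms do not overlap (7 higher in red, 2 lower in blue), the dotted line is the median of all genes tested (0.0065) and the dashed line that of S phase and replication genes (0.29).

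In base excision and single-strand break repair 3 of 6 genes had log2 fold changes above 0 and 3 below. APEX1, the endonuclease that cuts at sites lacking a base, had 98.2, 72.3 and 77.6 FPKM in anti-ENG tumours, against 62.4, 67.9 and 63.1 FPKM in IgG tumours. UNG, the glycosylase that removes uracil, had 20.9, 17.9 and 18.6 FPKM in anti-ENG tumours, against 14.1, 15.9 and 16.7 FPKM in IgG tumours. For both the groups lay apart, and the log2 fold changes were 0.34 (SE 0.14) for APEX1 and 0.28 (SE 0.12) for UNG, each with a limma adjusted p of 0.529. Without anti-ENG 1, the highest tumour for both genes, APEX1 was at 0.21 and UNG at 0.22. PARP1, which binds nicks and recruits the repair factors, had 43.7, 50.7 and 61.3 FPKM in anti-ENG tumours, against 42.2, 40.4 and 45.8 FPKM in IgG tumours. PARP1 was highest in anti-ENG 3, and its arms overlapped (log2 fold change 0.26, SE 0.14). The PARP1 value was 0.14 without anti-ENG 3 and 0.38 without anti-ENG 1.

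As deposited, the genes that seal the nick had the lowest log2 fold changes of the 46, with DDB2 (-0.20) next. XRCC1, the scaffold of this step, had 14.6, 16.4 and 17.1 FPKM in anti-ENG tumours, against 21.8, 19.0 and 16.6 FPKM in IgG tumours. Its log2 fold change was -0.24 (SE 0.13, limma adjusted p = 0.553). LIG3, the ligase bound to XRCC1, had 4.55, 4.39 and 5.63 FPKM in anti-ENG tumours, against 5.24, 5.95 and 6.15 FPKM in IgG tumours. Its log2 fold change was -0.21 (SE 0.13, limma adjusted p = 0.586). In each of these genes 1 anti-ENG tumour, anti-ENG 3, reached into the IgG range. Both values were below 0 under every alternative tried, between -0.35 and -0.081 for XRCC1 and between -0.32 and -0.14 for LIG3. The same held for DDB2, XPC, ERCC1, ERCC3, RAD54L and PALB2. Without both anti-ENG 1 and IgG control 1, XRCC1 (-0.081) was above LIG3 (-0.24), RAD54L (-0.21) and XPA (-0.20). OGG1, the glycosylase for oxidised guanine, averaged 8.93 ± 0.614 FPKM in anti-ENG tumours and 9.14 ± 1.19 FPKM in IgG tumours (SD, n = 3 each).

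Nucleotide excision was, as deposited, the one class of more than 1 tested gene with a median below 0, at -0.097 with 3 genes above and 4 below. With the sum of FPKM made equal its median was -0.21, and those of strand exchange, Fanconi and checkpoint genes were below 0 as well. ERCC2, a helicase of the repair and transcription factor TFIIH, had 14.5, 11.6 and 14.1 FPKM in anti-ENG tumours, against 10.2, 10.9 and 11.5 FPKM in IgG tumours. Its groups lay apart, with anti-ENG 2 just above the IgG range (log2 fold change 0.27, SE 0.12, limma adjusted p = 0.529). ERCC3, the other helicase of TFIIH, averaged 25.1 ± 1.44 FPKM in anti-ENG tumours and 26.9 ± 1.12 FPKM in IgG tumours (SD, n = 3 each), so the helicases of this factor differed in sign. ERCC1, a subunit of the nuclease that cuts beside the lesion, had 47.9, 48.9 and 39.2 FPKM in anti-ENG tumours, against 51.8, 52.3 and 46.7 FPKM in IgG tumours.

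XPC, which recognises lesions in untranscribed DNA and is also a p53 target in human cells, had 8.31, 10.6 and 10.5 FPKM in anti-ENG tumours, against 11.5, 10.8 and 11.1 FPKM in IgG tumours. The groups lay apart, but 2 of the 3 anti-ENG tumours were just under the IgG range, and the log2 fold change, -0.17 with an SE of 0.12 (limma adjusted p = 0.618), was -0.070 without anti-ENG 1. DDB2, the lesion sensor for ultraviolet damage and another p53 target, had 7.28, 10.1 and 5.83 FPKM in anti-ENG tumours, against 9.92, 8.16 and 8.57 FPKM in IgG tumours. DDB2 was more scattered in the anti-ENG arm, which held both its highest and its lowest value. DDB1, its adaptor, averaged 43.8 ± 4.47 FPKM in anti-ENG tumours and 40.4 ± 2.42 FPKM in IgG tumours (SD, n = 3 each). XPA, which verifies the lesion, averaged 9.92 ± 2.13 FPKM in anti-ENG tumours and 9.69 ± 1.02 FPKM in IgG tumours (SD, n = 3 each). Of 16 other p53 target genes 6 had log2 fold changes above 0 and 10 below, 0 passed the adjusted threshold and 0 an unadjusted p under 0.05. Their median of -0.13 was 0.011 without anti-ENG 1 and 0.048 without IgG control 1.

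The checkpoint kinases signal damage to the cell cycle. CHEK1, the kinase that acts downstream of ATR at stalled forks, had 22.5, 16.0 and 17.8 FPKM in anti-ENG tumours, against 14.8, 14.6 and 15.2 FPKM in IgG tumours. The groups lay apart, the IgG tumours were close together, and the log2 fold change, 0.30 with an SE of 0.14 (limma adjusted p = 0.529), was 0.17 without anti-ENG 1. CHEK2, which acts downstream of ATM at broken ends, had 8.31, 8.92 and 12.2 FPKM in anti-ENG tumours, against 11.0, 8.75 and 11.6 FPKM in IgG tumours. ATR, the kinase for single-stranded DNA, averaged 9.74 ± 1.09 FPKM in anti-ENG tumours and 8.68 ± 0.898 FPKM in IgG tumours (SD, n = 3 each). ATM, the kinase for broken ends, averaged 10.3 ± 0.794 FPKM in anti-ENG tumours and 10.6 ± 0.453 FPKM in IgG tumours (SD, n = 3 each). The arms overlapped in CHEK2, ATR and ATM. The class had 2 genes above 0 and 2 below, with a median of 0.058 as deposited and -0.053 with the sum of FPKM made equal.

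Since FPKM is per length, partners of a complex could be set against each other within a tumour. Of 10 ratios compared, 0 differed between the arms (exact two-sided permutation test on the log2 ratio with 1 FPKM added to each gene), with 0.3 as the smallest unadjusted p, 0.9 as the smallest adjusted p and 0.1 as the smallest p the design allows. XRCC5 stood at 0.551 ± 0.0642 of XRCC6 in anti-ENG tumours and 0.622 ± 0.0708 in IgG tumours (SD, n = 3 each). In DDB2 over DDB1 the ratios were 0.149, 0.253 and 0.137 in anti-ENG tumours, against 0.231, 0.214 and 0.214 in IgG tumours. For LIG4 over XRCC4 they were 0.309, 0.830 and 0.567 in anti-ENG tumours, against 0.754, 0.718 and 0.782 in IgG tumours. The IgG tumours thus kept these 2 ratios in a narrow range that the anti-ENG tumours left on both sides.

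MSH3 over MSH6, which compete for the same partner subunit, was 0.276, 0.207 and 0.321 in anti-ENG tumours, against 0.212, 0.228 and 0.224 in IgG tumours. BRCA1 was 2.02 ± 0.539 times BARD1 in anti-ENG tumours and 2.12 ± 0.395 times in IgG tumours (SD, n = 3 each). FANCI was 2.82 ± 0.473 times FANCD2 in anti-ENG tumours and 2.54 ± 0.284 times in IgG tumours (SD, n = 3 each). For NBN over RAD50 the spread was wider in the IgG arm, with 1.11 ± 0.0313 in anti-ENG tumours and 1.07 ± 0.343 in IgG tumours (SD, n = 3 each). LIG3 was about the same fraction of XRCC1 in both arms, 0.303 ± 0.0320 in anti-ENG tumours and 0.308 ± 0.0649 in IgG tumours (SD, n = 3 each). The ratio of PALB2 to BRCA2 averaged 1.36 in both arms.

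**Figure D3:**
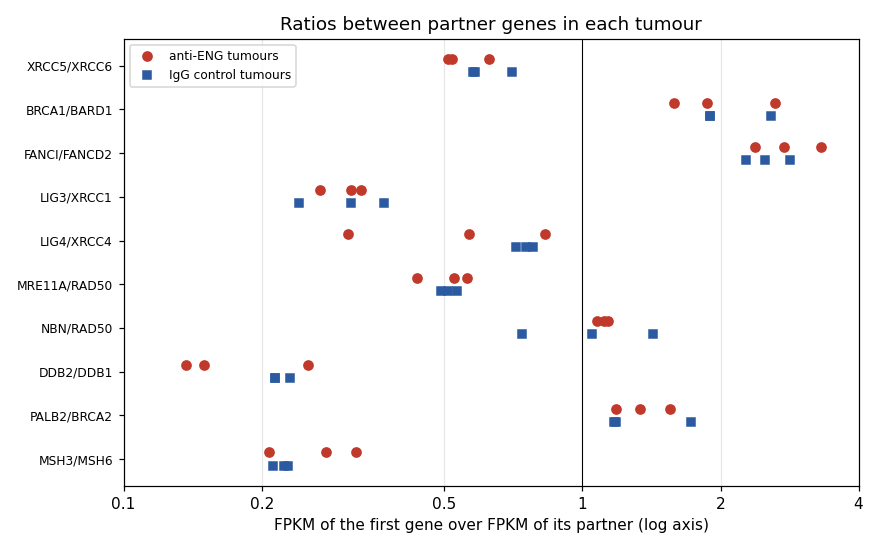
Ratio of FPKM between partner genes in each tumour (log axis), with red circles for the 3 anti-ENG tumours and blue squares for the 3 IgG control tumours. LIG4 over XRCC4 and DDB2 over DDB1 are scattered in the anti-ENG arm and close together in the IgG arm, and the arms overlap in all 10 pairs.

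The members usually transcribed in S phase were set beside the rest and beside genes of the cell cycle. Of 14 such repair genes 11 had log2 fold changes above 0, with a median of 0.082, and the other 32 had 20 above 0 and a median of 0.074. The repair genes tied to S phase therefore lay close to the other repair genes. Of 22 S phase and replication genes, by contrast, all had log2 fold changes above 0, with a median of 0.29. Of 20 G2/M genes all did too, with a median of 0.39, beside 51.2% of all genes tested above 0. In these lists 0 genes passed the adjusted threshold, while 6 S phase genes (27.3%) and 11 G2/M genes (55%) had an unadjusted p under 0.05, all higher in anti-ENG tumours, beside 5.56% of all genes in that direction. The G2/M median was 0.25 without anti-ENG 1 and 0.19 without both anti-ENG 1 and IgG control 1. PCNA, the sliding clamp, had the smallest p among the S phase genes, with a mean of 149 FPKM in anti-ENG tumours and 96.2 FPKM in IgG tumours. The difference between these lists and the repair genes was not tested.

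Tumour by tumour, the median over all repair genes moved less than the medians of the cell cycle lists. In anti-ENG 1 the median repair gene lay 0.12 above its own mean over the 6 tumours (log2 scale), the median S phase gene 0.25 and the median G2/M gene 0.37. Single classes could move as much: the median of the 5 end joining genes was 0.41 in anti-ENG 1. In anti-ENG 2 and 3 the median repair gene was at -0.0093 and -0.0063, close to the 6-tumour mean, while the S phase genes were at 0.073 and 0.15. The G2/M genes were at 0.11 and 0.020 in these tumours. The IgG tumours 1, 2 and 3 had -0.050, -0.059 and -0.030 for repair genes and -0.21, -0.15 and -0.057 for S phase genes. Anti-ENG 1 held the highest value in 21 of the 46 repair genes (45.7%), beside 30.5% of all genes tested. IgG control 1 held the lowest in 13 (28.3%), beside 21.5%. Without both tumours the median log2 fold change of the repair genes was 0.052, with 29 of 46 above 0, beside 53.8% of all genes. The S phase median was then 0.20.

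**Figure D4:**
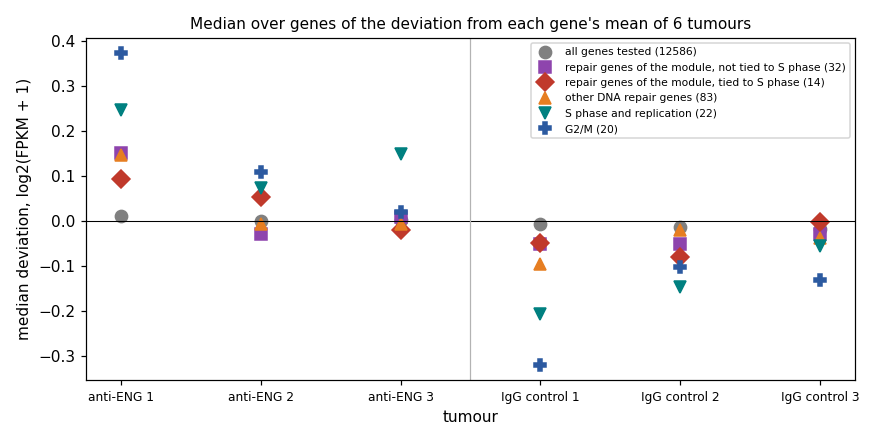
For each tumour, the median over a list of the difference between a gene's log2(FPKM + 1) and its mean over the 6 tumours, for all genes tested, repair genes tied and not tied to S phase, other repair genes, S phase and G2/M genes (number of genes in brackets). The cell cycle lists spread from -0.32 to 0.37 and the lists of repair genes stay between -0.095 and 0.15.

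Repair genes outside the 47 gave a wider view of the same pathways. Of 83 such genes, all tested, 54 had log2 fold changes above 0 (65.1%, beside 51.2% of all genes) and 29 below, with a median of 0.12. That median was 0.0031 with the sum of FPKM made equal and -0.0041 without both anti-ENG 1 and IgG control 1. None passed the adjusted threshold in limma (0 genes), and 14 (16.9%, beside 9.17% of all genes) had an unadjusted p under 0.05. Of these 11 were higher in anti-ENG tumours, 13.3% of the list beside 5.56% of all genes, and 3 were lower. After PCNA, which the S phase list also holds, the smallest p belonged to UBE2T, the Fanconi ubiquitin-conjugating enzyme. UBE2T had 53.6, 49.7 and 54.3 FPKM in anti-ENG tumours, against 38.3, 37.9 and 41.4 FPKM in IgG tumours (log2 fold change 0.41, SE 0.10, limma adjusted p = 0.529). The arms lay apart in UBE2T, while they overlapped in the 9 core, ID and helicase genes above. Of other genes in this list tied to crosslink repair, USP1 lay apart and higher too (log2 fold change 0.35, limma adjusted p = 0.529), as did RAD51C of the 47. FANCB (0.060), FANCM (0.20) and ERCC4 (0.058) overlapped. Other genes of the list tied to crosslink repair were below 0, and their arms overlapped. These were REV3L (-0.21), HELQ (-0.18), SLX4 (-0.11), FAN1 (-0.10), EME1 (-0.031) and MUS81 (-0.026).

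RPA3, the small subunit of the protein that coats single-stranded DNA, averaged 26.2 ± 3.28 FPKM in anti-ENG tumours and 18.1 ± 2.76 FPKM in IgG tumours (SD, n = 3 each).

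Several repair genes share a start region or overlap with a neighbour, which gives a view of both sides of 1 locus. PRKDC and the replication helicase gene MCM4 are transcribed from a shared start region in opposite directions, with 0.32 for MCM4 and 0.042 for PRKDC. MCM4 had 42.6, 36.8 and 39.6 FPKM in anti-ENG tumours, against 32.8, 29.1 and 32.8 FPKM in IgG tumours, so its groups lay apart where those of PRKDC overlapped. PMS2 (0.19) and AIMP2 (0.43), a scaffold of tRNA synthetases, both had values above 0, as did APEX1 (0.34) and OSGEP (0.18), and UNG (0.28) and ALKBH2 (0.24). ATM stood at -0.034 and its neighbour NPAT, a histone gene activator, at 0.17. PALB2 was at -0.071 and DCTN5 at -0.0016. Differences within these pairs were not tested, and each gene had a limma adjusted p of 0.529 or more.

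Some values carry added uncertainty. PMS2, CHEK2, XRCC6, BRCA1 and FANCD2 have pseudogenes or partial copies with which short reads can be shared. Strand use in the counting is not given, so fragments where ERCC1 overlaps CD3EAP cannot be assigned with certainty. Tumours hold host cells, and mouse RNA counts here only as far as it aligns to human genes. In bulk tissue fewer cells of a type and less RNA per cell cannot be told apart. All 7 fibroblast markers were at a mean of 1 FPKM or more, and their summed level was 181 to 421 FPKM in anti-ENG tumours and 335 to 625 FPKM in IgG tumours. Of these 7 markers 6 had log2 fold changes below 0 and 1 above, with a median of -0.83. In limma 0 passed the adjusted threshold, and the arms overlapped in all 7. Of 7 endothelial markers 5 stayed under 1 FPKM in all 6 tumours, with summed levels of 2.88 to 4.60 FPKM in anti-ENG tumours and 2.90 to 5.20 FPKM in IgG tumours. The 6 macrophage markers found summed to 81.8 to 107.7 FPKM in anti-ENG tumours and 71.1 to 125 FPKM in IgG tumours. Most of that sum was CD68, at 71.2 to 96.1 FPKM in anti-ENG tumours and 58.4 to 115 FPKM in IgG tumours. Only 3 of the 6 had a mean of 1 FPKM or more, and 2 stayed under 1 FPKM in all 6 tumours. The part of host cells in the repair gene values was not tested.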

How the data were processed

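RNA of 6 xenograft tumours was sequenced as polyadenylated RNA, per the labels' protocols. These mention more than 1 library kit and more than 1 Illumina sequencer but assign neither to samples, so a difference in kit or sequencer between arms and the treatment cannot be told apart. The deposited values are FPKM, made by the authors on build GRCh37 (hg19), and the submitters' processing notes name Cuffnorm, Cufflinks 2.2.1, TopHat2 2.0.10, SAMtools 0.1.1.9, Bowtie 1.0.0 and FastQC 0.10.1. The gene annotation, Cuffnorm's scaling and the handling of mouse reads are not given in the sources used here. Mouse is the labelled organism, while the symbols are human.

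FPKM is not a count, so no count test was run. Total depth is unknown. Among values no higher than 0.05 FPKM, the step worth 1 fragment gave estimates of depth relative to IgG control 1. They were 1.46, 1.23 and 1.14 for anti-ENG 1, 2 and 3 and 1.18 and 1.1 for IgG control 2 and 3. Of the 212 to 238 genes used per tumour, 47.5% to 50.4% lay within 2% of the ratio taken, so these depths are approximate. No pair of tumours had identical values. limma 3.58.1 in R 4.3.3 was fitted with a variance trend and no covariate on log2(FPKM + 1), in genes averaging 1 FPKM or more, with two-sided p-values adjusted by Benjamini-Hochberg at 0.05. A fold change on this scale understates that of low genes. The fit was tested on simulated data. Groups and replicate numbers come from the sample titles.

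All 47 repair genes are named. From the lists of other repair, S phase, G2/M and p53 target genes, at most the 4 genes of smallest p could be named, with neighbours of repair genes and ENG. USP1, FANCB, FANCM, ERCC4, REV3L, HELQ, SLX4, FAN1, EME1, MUS81, PMS1 and MLH3 are named in addition, beside the genes of their pathways. Some genes that this rule picks are left out of the text. The repair genes and all lists were chosen with earlier results of these data known. Alternatives covered the pseudocount, filter, scaling, variance model, sample weights, a replicate block, leaving out each tumour and averaging of tumours that share a code number. Cyclic loess normalization and leaving out both end tumours were added after seeing the data. Human sequence and coordinates were not used here, and MGMT was left out of the fit because it is listed at 0 throughout.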

Additional observations from a re-analysis of the deposited data

How the results depend on the processing

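Over 18 alternatives 0 repair genes passed an adjusted p under 0.05, and 0 of all genes did; the smallest adjusted p of a repair gene under any was 0.377. Of the 46 tested, 27 kept the sign of their log2 fold change throughout and 19 did not. With the sum of FPKM made equal, 20 of 46 were above 0, beside 33.1% of all genes. The median log2 fold change was then -0.027 for all repair genes, -0.027 for those tied to S phase and -0.032 for the rest. Leaving out 1 tumour gave 29 to 31 genes above 0, beside 50.5% to 53.5% of all genes. The medians were then 0.060 to 0.13 for all repair genes, 0.070 to 0.15 for those tied to S phase and 0.025 to 0.14 for the rest. The upper ends came without anti-ENG 3, and for the rest without anti-ENG 2. The cause of these shifts was not tested. Same-numbered deviations of the 2 arms correlated at -0.329, 0.194 and 0.0371 for numbers 1, 2 and 3. Those of unlike number ran from -0.488 to 0.355. With so few tumours these values cannot settle whether the replicate numbers pair the tumours. With a replicate block the fit called 0 genes (smallest adjusted p 0.641) and the repair median was 0.075. There 0 repair genes had an unadjusted p under 0.05, beside 6.69% of all genes.

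Signs turned as follows. With the sum of FPKM made equal the log2 fold changes were -0.029 for BARD1, -0.11 for BRCA1, -0.085 for BRIP1, -0.0081 for DDB1, -0.019 for FANCC, -0.025 for FANCI, -0.062 for MRE11A, -0.076 for PRKDC, -0.046 for RAD50, -0.094 for XPA and -0.064 for XRCC2. Upper quartile scaling put BRCA1 at -0.015, quantile normalization LIG4 at 0.021 and OGG1 at 0.0043, and cyclic loess PRKDC at -0.016. Sample weights gave BRCA2 0.0087, CHEK2 0.0027, MRE11A -0.0026 and XPA -0.097. Averaging tumours of one code number gave BARD1 -0.025 and LIG4 0.065. Without both IgG control 1 and anti-ENG 1, BRCA2 was at 0.089, CHEK2 0.049, LIG4 0.076, MRE11A -0.086, PRKDC -0.038, RAD50 -0.072, XPA -0.20 and XRCC5 -0.035. The LIG3/XRCC1 difference in log2 ratio was -0.0025 with a pseudocount of 0.1.

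Leaving out 1 tumour gave ranges of -0.084 to 0.079 for BRCA1, -0.17 to 0.012 for BRCA2, -0.039 to 0.17 for BARD1, -0.011 to 0.18 for RAD50, -0.036 to 0.13 for MRE11A, -0.0015 to 0.16 for FANCC, -0.13 to 0.0022 for FANCL, -0.13 to 0.0010 for FANCD2, -0.046 to 0.079 for BRIP1, -0.020 to 0.15 for PRKDC, -0.20 to 0.18 for LIG4, -0.089 to 0.068 for OGG1, -0.14 to 0.12 for XPA, -0.071 to 0.025 for ATM and -0.24 to 0.011 for CHEK2. For the log2 ratios they were -0.25 to 0.071 for BRCA1/BARD1, -0.13 to 0.15 for LIG3/XRCC1, -0.093 to 0.078 for MRE11A/RAD50, -0.13 to 0.32 for NBN/RAD50 and -0.074 to 0.16 for PALB2/BRCA2. Total depth is unknown, so no counting error can be given for single values.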
